A study of Mus musculus with 6 samples.

Results

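The proliferation signature examined here comprised 40 genes of the cell cycle, 16 of S phase and 24 of G2 and M phase, out of the 16623 genes quantified. They were read in 7761 of 11610 liver cells, in 5 classes of nonparenchymal cells (cells other than hepatocytes): dendritic-like, macrophage-like, lymphoid-like, plasma-like and endothelial-like. The members were fixed by name as genes of these phases, with earlier results of the same data known. Single-cell RNA sequencing (10x Genomics 3' chemistry, which counts unique molecular identifiers, UMIs) had been performed on livers from 3 WT mice and 3 mice labelled SIRT7 KO, all 5 to 6 months old. SIRT7 is a nuclear NAD+-dependent deacylase. Every library held hepatocytes and nonparenchymal cells that had been isolated by collagenase perfusion and mixed in equal numbers, so the number of cells in a class depends on that mixture as well as on the liver. The question asked was whether the members' levels differed between the genotypes within each class.

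S-phase genes encode the machinery that copies DNA: the MCM helicase that unwinds it, the factors that load and fire the helicase, the clamp Pcna, and the enzymes that make deoxynucleotides. G2/M genes encode the cyclins and kinases that drive entry into mitosis and the proteins that condense chromosomes, build the spindle and trigger anaphase. S-phase genes are typically controlled by E2F factors. Many G2/M genes are repressed in resting cells by the DREAM complex through a CHR element, and activated in dividing cells with NF-Y, which binds CCAAT boxes. Resident macrophages, T cells, NK cells and dendritic cells can divide in the liver, whereas most adult hepatocytes and sinusoidal endothelial cells are out of cycle.

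These promoter elements were visible in the sequences of the members. RefSeq promoters of GRCm38.p6, from 250 bases before to 30 bases after the start, were matched for 34 of the 40 members. The CHR word TTTGAA lay in a promoter of 12 of 20 G2/M members and 2 of 14 S members, against 19.5% of all 27025 genes with a promoter. A CCAAT box (CCAAT) lay in a promoter of 16 of 20 G2/M and 10 of 14 S members, against 39.7% of genes. An E2F word (TTTCCCGC, TTTCGCGC, TTTGCCGC or TTTGGCGC) lay in a promoter of 7 of 14 S members and of 1 of 20 G2/M members, Cdk1, against 2.45% of genes. A gene counted once, whatever its number of promoters. Both strands were searched, and a match describes the letters only. Promoters of 3 S members and 2 G2/M members that rank among the highest in level are given on the gene's strand, with the motif words on either strand in capitals. In these 5 sequences the S promoters hold E2F words and CCAAT boxes without CHR, and the G2/M promoters hold CHR and CCAAT boxes without E2F words.
Mcm3, chr1:20820283-20820562, minus strand: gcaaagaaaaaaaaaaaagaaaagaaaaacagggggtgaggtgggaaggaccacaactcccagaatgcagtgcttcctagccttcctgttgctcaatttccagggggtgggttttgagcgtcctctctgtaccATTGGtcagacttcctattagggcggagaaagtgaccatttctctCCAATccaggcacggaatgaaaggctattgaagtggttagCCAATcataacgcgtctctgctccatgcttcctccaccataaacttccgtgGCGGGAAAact
Mcm5, chr8:75109259-75109538, plus strand: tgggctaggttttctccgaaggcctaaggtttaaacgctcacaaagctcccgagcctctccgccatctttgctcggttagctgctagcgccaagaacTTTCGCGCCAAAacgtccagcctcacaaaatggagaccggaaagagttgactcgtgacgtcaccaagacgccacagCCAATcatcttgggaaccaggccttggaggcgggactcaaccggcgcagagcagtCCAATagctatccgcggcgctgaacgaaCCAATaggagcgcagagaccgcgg
Mcm6, chr1:128359676-128359955, minus strand: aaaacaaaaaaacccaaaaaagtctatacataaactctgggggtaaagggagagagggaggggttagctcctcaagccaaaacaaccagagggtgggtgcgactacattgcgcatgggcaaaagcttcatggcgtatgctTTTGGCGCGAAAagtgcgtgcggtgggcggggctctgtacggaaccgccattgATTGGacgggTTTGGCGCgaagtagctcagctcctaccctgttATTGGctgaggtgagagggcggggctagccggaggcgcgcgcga
Ube2c, chr2:164769679-164769958, plus strand: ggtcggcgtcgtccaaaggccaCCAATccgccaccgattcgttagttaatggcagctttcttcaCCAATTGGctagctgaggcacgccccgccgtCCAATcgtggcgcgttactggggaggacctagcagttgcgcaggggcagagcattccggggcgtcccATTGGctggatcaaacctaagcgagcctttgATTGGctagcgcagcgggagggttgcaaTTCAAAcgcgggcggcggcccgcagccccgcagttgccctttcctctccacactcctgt
Top2a, chr11:99024160-99024439, minus strand: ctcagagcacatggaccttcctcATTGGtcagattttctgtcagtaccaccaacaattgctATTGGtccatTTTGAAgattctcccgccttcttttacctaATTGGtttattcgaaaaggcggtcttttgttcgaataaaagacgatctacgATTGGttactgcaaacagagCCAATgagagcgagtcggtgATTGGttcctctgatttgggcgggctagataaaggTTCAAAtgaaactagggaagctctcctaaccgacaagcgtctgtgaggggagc

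The libraries differed in size. They held 552 to 5609 cells and 2511947 to 11069411 UMIs, with the largest library from SIRT7 KO mouse 1 and the smallest number of cells from SIRT7 KO mouse 3. Sirt7 itself was at 0.718, 0.512 and 0.546 counts per 10000 (CP10K) in the WT mice and at 0.1, 0.0814 and 0.139 in the SIRT7 KO mice, without overlap. Permuting the mice exactly gave a two-sided p of 0.1, below which 3 against 3 mice cannot go. The libraries shared 13 cell barcodes. The number of cells per mouse was 23 to 528 for dendritic-like, 47 to 2571 for macrophage-like and 33 to 775 for lymphoid-like cells. In the plasma-like class, WT mouse 1 and SIRT7 KO mouse 3 had fewer than 20 cells and were left out, as was SIRT7 KO mouse 3 in the endothelial-like class.

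Summed over the 40 members, WT levels were highest in macrophage-like cells (14.9 ± 2.02 CP10K, SD, n = 3) and dendritic-like cells (12.9 ± 7.91), whose ranges overlapped. Lymphoid-like cells followed at 6.99 ± 2.93 and endothelial-like cells at 3.86 ± 0.543, and these ranges overlapped in WT mouse 1. Plasma-like cells had 2.58 ± 1.42 (n = 2). Hepatocyte-like cells had the lowest WT level, 1.71 ± 0.197, and stood at 1.24, 4.04 and 5.20 in the SIRT7 KO mice, so they were read as a background for free RNA in WT mice only. In the SIRT7 KO mice lymphoid-like cells had 18.9 ± 12.6 and macrophage-like cells 8.14 ± 3.89. By the ratio of means, the summed level of SIRT7 KO mice was 2.70 times that of WT mice in lymphoid-like cells and 0.548 times in macrophage-like cells. Without SIRT7 KO mouse 2 the former was 1.67, and leaving out single mice gave 0.449 to 0.696 for the latter. No single member passed an adjusted p of 0.05 in any of the 5 classes (limma on log2(CP10K + 0.05) of each mouse, Benjamini-Hochberg over all genes tested), so higher and lower describe means over mice in what follows. In simulated data the same fit called at most 34% of 4-fold changes in a class, so an absence of calls does not exclude changes.

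**Figure D1:**
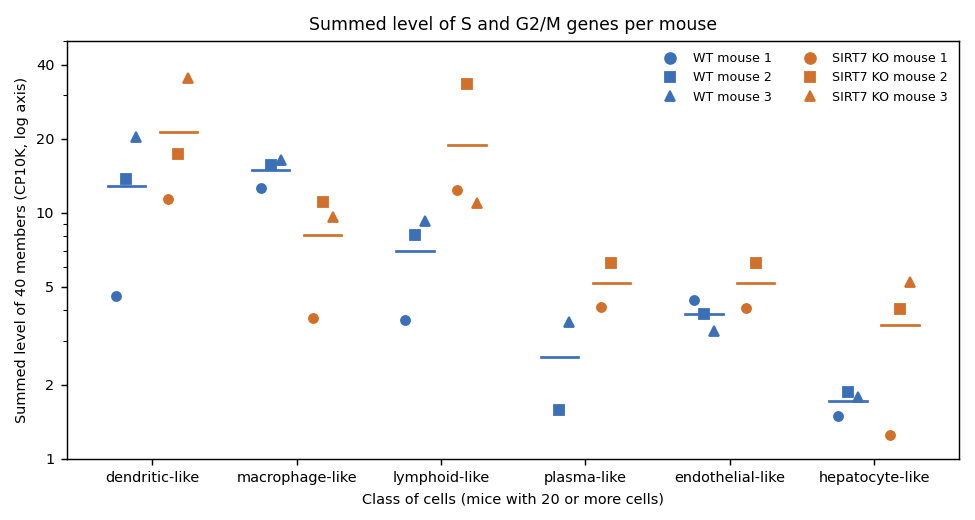
Summed mean level of the 40 members (CP10K, log axis) in each mouse and class with 20 or more cells, WT in blue and SIRT7 KO in orange, one symbol per mouse number. In lymphoid-like cells the SIRT7 KO mice (10.9 to 33.4) lie above the WT mice (3.66 to 9.21), and in macrophage-like cells they lie below (3.72 to 11.1 against 12.6 to 16.3).

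In lymphoid-like cells, which comprised T, NK and B cells, all 40 members had a higher mean in the SIRT7 KO mice, against 44.3% of the 10051 genes tested. The summed level was 3.66, 8.10 and 9.21 CP10K in the WT mice and 12.4, 33.4 and 10.9 in the SIRT7 KO mice. The groups did not overlap, with SIRT7 KO mouse 2 far above the others. The S members summed to 2.004, 2.94 and 3.56 in WT and 3.45, 9.93 and 4.84 in SIRT7 KO, which overlapped, and the G2/M members to 1.66, 5.16 and 5.65 against 8.93, 23.5 and 6.06, which did not. The median log2 fold change was 1.05 over the members, 0.79 over the S members and 1.27 over the G2/M members, against -0.06 over all genes. An unadjusted p under 0.05 was reached by 15 members, all higher (2.65% of genes), and 12 had every SIRT7 KO mouse above every WT mouse (5.08% of genes). None passed after adjustment, as 0.159% of genes did, and the lowest adjusted p was 0.382 by limma. A second fit, voom on recovered UMIs, called none either and gave 14 members at an unadjusted p under 0.05, all higher (3.08% of genes).

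The score of the signature (the mean over members of log2(CP10K + 0.05)) was -3.08, -2.28 and -2.11 in the WT and -1.81, -0.51 and -1.95 in the SIRT7 KO lymphoid-like cells. The difference of 1.07 ranged from 0.61 to 1.33 when each mouse was left out in turn, and was lowest without SIRT7 KO mouse 2. The count of single genes moved with individual mice. Without SIRT7 KO mouse 2, 6 members had an unadjusted p under 0.05, all higher (2.26% of genes). Without WT mouse 1, 7 did (1.67% of genes). Without SIRT7 KO mouse 3, which had 33 cells, 29 did (3.33% of genes).

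**Figure D2:**
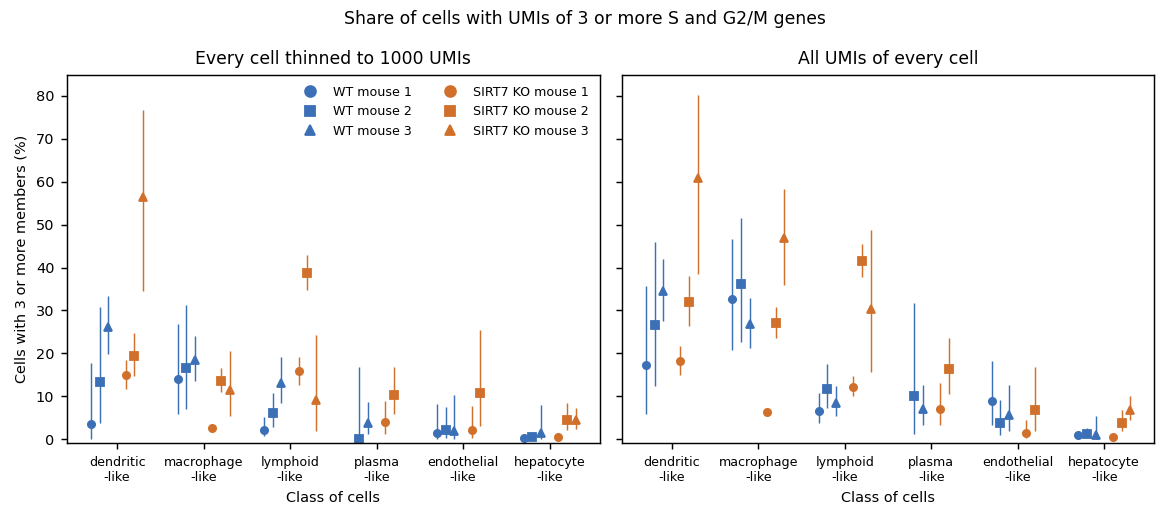
Percent of cells with UMIs of 3 or more members in each mouse and class, with exact 95% binomial intervals, after thinning every cell to 1000 UMIs (left) and with all UMIs (right). After thinning, 38.7% of lymphoid-like cells of SIRT7 KO mouse 2 passed, and macrophage-like cells of the 3 SIRT7 KO mice (2.62% to 13.7%) lie below those of the WT mice (14% to 18.3%).

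The share of cells with UMIs of 3 or more members was compared after thinning each cell to 1000 UMIs, since the classes differed in depth between mice (intervals below are exact 95% binomial, Clopper-Pearson, and cover counting error only). In WT lymphoid-like cells it was 2.20% (0.719 to 5.07), 6.06% (2.94 to 10.9) and 13.1% (8.39 to 19.2). The SIRT7 KO mice had 15.8% (12.7 to 19.2), 38.7% (34.7 to 42.8) and 9.09% (1.92 to 24.3). The groups overlapped, because SIRT7 KO mouse 3 lay below WT mouse 3. Cells too shallow to thin, 0, 5 and 102 in WT and 268, 91 and 0 in SIRT7 KO, were left out. With all UMIs the shares were 6.61%, 11.8% and 8.52% against 12.3%, 41.5% and 30.3%, without overlap, at median depths of 2639, 2566 and 1072 against 1143, 1943 and 3241 UMIs. Thinned hepatocyte-like cells had 0.286%, 0.491% and 1.49% in WT and 0.467%, 4.55% and 4.40% in SIRT7 KO mice, at median depths of 1727, 1476 and 1240 against 1214, 1219 and 3291 UMIs. All lymphoid-like shares lay above the hepatocyte-like share of the same mouse, which was read as a background in WT mice only. The interval of SIRT7 KO mouse 3 included the hepatocyte-like share. Whether the UMIs in SIRT7 KO hepatocyte-like cells came from free RNA or from hepatocytes in cycle was not tested.

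Most of the lymphoid-like cells that passed were T cells. T cells also made up most of the class itself, 80% to 83.3% in WT and 51.5% to 76.7% in SIRT7 KO mice. In the T cluster, led by Cd3d, Cd3e, Cd3g and Trac, the thinned share was 2.65%, 6.77% and 12.1% in WT and 17.7%, 42.7% and 11.8% in SIRT7 KO mice. NK and innate lymphoid cells, led by Gzma, Ncr1 and Gzmc, had 0%, 5.26% and 7.69% of 14, 19 and 13 cells in WT and 16.4%, 26.4% and 7.14% of 146, 106 and 14 cells in SIRT7 KO mice. B cells passed in 0 of 24, 0 of 13 and 4 of 14 WT cells and in 1 of 51, 4 of 22 and 0 of 2 SIRT7 KO cells. In T cells alone, compared in 3 WT mice and SIRT7 KO mice 1 and 2, 39 of 40 members had a higher mean (48.2% of 10001 genes), 29 had an unadjusted p under 0.05 in that direction (3.56% of genes) and none was called by limma (0.3% of genes). SIRT7 KO mouse 3 had 17 T cells and did not enter, and all lymphoid-like cells without that mouse also gave 29 (3.33% of genes). The makeup of the class moved with genotype: NK and innate lymphoid cells made up 6.17%, 11.2% and 8.52% of it in WT and 31.6%, 19.2% and 42.4% in SIRT7 KO mice. The 8 NK markers summed to 24.4 to 32.4 CP10K against 37.9 to 61.7. The 7 markers of conventional dendritic cells 2 summed to 2.10 to 2.52 against 5.35 to 9.10, those of other macrophages to 0.723 to 1.22 against 1.46 to 1.89, and the B markers to 4.30 to 6.60 against 2.31 to 3.50. These were the 4 of 19 marker lists without overlap in this class. The part of these markers in the result was not tested. The 10 hepatocyte markers summed to 75.9 to 127 CP10K in WT and 15.2 to 85.03 in SIRT7 KO lymphoid-like cells, with overlap. Leaving out cells with UMIs of 3 or more markers of another class, 38 of 39 tested members still had a higher mean (43.2% of genes). Of these, 7 had an unadjusted p under 0.05 (2.09% of genes).

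In macrophage-like cells the members lay the other way. Its clusters scored highest for the list of Kupffer cells, the resident macrophages of the liver, although they differed in how many of these markers led them. The 10 Kupffer markers summed to 181 to 226 CP10K in WT and 215 to 252 in SIRT7 KO mice. Of the 40 members, 38 were above the filter of a mean of 0.05 CP10K (not Cdc45 and Kif20b), and 35 of these had a lower mean in SIRT7 KO mice, against 52.4% of the 9942 genes tested. The summed level was 12.6, 15.7 and 16.3 CP10K in the WT mice and 3.72, 11.1 and 9.62 in the SIRT7 KO mice, without overlap. SIRT7 KO mouse 1, which supplied 2571 of the 3609 cells, was the lowest. S members summed to 6.20, 5.19 and 5.80 against 1.74, 4.80 and 4.33, and G2/M members to 6.37, 10.5 and 10.5 against 1.99, 6.28 and 5.29, neither with overlap. The median log2 fold change was -0.61, against -0.03 over all genes. There were 11 members with an unadjusted p under 0.05, all lower (6.78% of genes), and 9 with every SIRT7 KO mouse below every WT mouse (9.86% of genes), of which 8 were G2/M members. None was called (0.201% of genes), and the lowest adjusted p was 0.164 by limma. By voom none was called and 12 members had an unadjusted p under 0.05, all lower (8.7% of genes). With monocyte-like cells, otherwise kept apart, added to the class, 29 of 36 tested members had a lower mean and 7 a higher one (45.7% of genes). In that fit the median log2 fold change was -0.40, against -0.04 over all genes. There 6 members had an unadjusted p under 0.05 by limma, all lower (7.75% of genes), and none was called (0.632% of genes). Without WT mouse 3, 5 of 36 members had an unadjusted p under 0.05, all lower, as did 9.11% of genes. Without SIRT7 KO mouse 1, 4 of 38 members did, all lower (5.04% of genes). In that fit 29 of 38 members had a lower mean and 9 a higher one (47.8% of genes). The score difference of -0.61 became -0.25 without that mouse.

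After thinning, 14% (5.82 to 26.7), 16.7% (6.97 to 31.4) and 18.3% (13.4 to 24.1) of WT macrophage-like cells had UMIs of 3 or more members. The SIRT7 KO mice had 2.62% (2.01 to 3.34), 13.7% (11 to 16.7) and 11.4% (5.34 to 20.5), below all WT mice, although the intervals of SIRT7 KO mice 2 and 3 overlapped those of WT. With all UMIs this order was lost: the shares were 32.7%, 36.2% and 26.8% in WT and 6.22%, 27.0% and 47.0% in SIRT7 KO mice, at median depths of 3897, 2733 and 2247 against 2085, 3205 and 6349 UMIs. Thinning left out 5, 5 and 21 WT and 202, 21 and 4 SIRT7 KO cells. Most of the cells that passed belonged to the cluster led by Cd207, Pf4, Gdf3 and C1qb, in which the share was 23.1%, 21.4% and 26.6% against 4.01%, 13.8% and 17.9%. Of the Kupffer markers only C1qb and C1qa were among its 10 leading genes, beside Ms4a7 of the other macrophage list. Whether its cells were resident Kupffer cells was not tested. In the cluster led by Hmox1, Marco and Vsig4 the share was 4.35%, 7.14% and 6.45% against 0.563%, 10.2% and 5.26%, which overlapped. The class also held a cluster led by Ccl24, Fabp7 and Pcolce2. There the share was 7.14% of 28 cells in WT mouse 3. It was 5.60% of 232 cells in SIRT7 KO mouse 1 and 21.4% of 84 in SIRT7 KO mouse 2, on either side of that value. WT mouse 1 had 1 cell in it, WT mouse 2 had 0 and SIRT7 KO mouse 3 had 2. The genotypes could therefore not be compared there. The cluster led by Cd207 held 31 of 55, 32 of 47 and 146 of 239 WT cells and 1219 of 2571, 331 of 614 and 40 of 83 SIRT7 KO cells. The 13 immediate-early genes summed to 22.9 to 29.96 CP10K in WT and 10.9 to 19.95 in SIRT7 KO macrophage-like cells, also without overlap. Of the 19 marker lists, 2 more separated there, the plasmacytoid dendritic markers at 3.95 to 4.60 against 5.59 to 10.1 and the endothelial markers at 7.29 to 8.20 against 6.29 to 6.89. The part of these lists in the result was not tested.

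**Figure D3:**
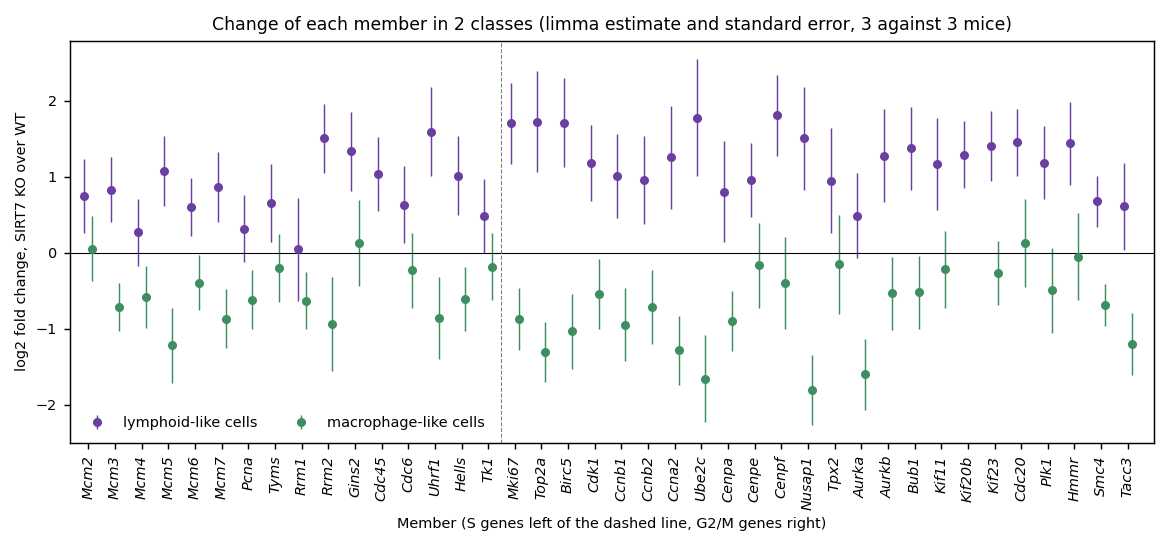
log2 fold change (SIRT7 KO over WT) of each member with its standard error in lymphoid-like and macrophage-like cells, 3 against 3 mice, S members left of the dashed line and G2/M members right of it. All 40 points of lymphoid-like cells lie above 0, and 35 of 38 points of macrophage-like cells lie below it.

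These directions were compared within mice, since both classes came from the same livers. For each mouse the level on the log2 scale in macrophage-like cells was subtracted from that in lymphoid-like cells. The differences were compared between genotypes by limma over the 9066 genes tested in both classes, a test added after the data had been examined. The members were by then known to lie in opposite directions in these classes. Positive differences are therefore largely given by the results above and are not separate support for them. All 38 members had a positive difference (48.2% of genes), 28 had an unadjusted p under 0.05 (3.28% of genes) and 24 had no overlap between the genotypes in that direction (6.61% of genes). The median was 1.68 over the members against -0.03 over all genes. No gene passed after adjustment (0.0% of genes), and the lowest adjusted p among members was 0.380, for Cenpf. Cenpf, a kinetochore protein (chr1:189640606-189688086, minus strand), had within-mouse differences of 0.08, 0.07 and -0.50 in WT and 2.13, 2.39 and 1.76 in SIRT7 KO mice, a change of 2.21 ± 0.37 (SE). It was followed by Ube2c at 3.44 ± 0.66, Nusap1 at 3.31 ± 0.65, Mcm5 at 2.29 ± 0.47 and Top2a at 3.03 ± 0.67. Leaving out 1 mouse gave 16 members with an unadjusted p under 0.05 (of 35 tested, against 2.12% of genes, without SIRT7 KO mouse 2) to 33 (3.52% of genes, without SIRT7 KO mouse 3). With cells carrying markers of another class left out it was 15 of 37 (2.59% of genes).

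Among the S members, the MCM helicase genes summed to 1.07, 1.55 and 1.91 CP10K in WT and 1.47, 4.37 and 3.04 in SIRT7 KO lymphoid-like cells, and to 3.46, 2.94 and 2.78 against 0.914, 2.47 and 2.17 in macrophage-like cells. They did not overlap in the latter class and did in the former. Mcm5 was at 0.187, 0.162 and 0.39 CP10K in the WT mice and 0.23, 0.783 and 0.838 in the SIRT7 KO mice in lymphoid-like cells, a log2 fold change of 1.08 ± 0.46 (SE). In macrophage-like cells its level was 1.06, 0.628 and 0.663 CP10K in the WT mice and 0.0849, 0.542 and 0.485 in the SIRT7 KO mice, a log2 fold change of -1.22 ± 0.49 with no overlap, and it was the only S member of which that held. Mcm3, another helicase subunit, stood at 0.16, 0.27 and 0.331 CP10K in the WT mice and 0.227, 0.775 and 0.578 in the SIRT7 KO mice in lymphoid-like cells, with overlap. Its macrophage-like levels were 1.06, 1.13 and 0.637 against 0.35, 0.669 and 0.662, which overlapped. Mcm6 and Mcm2 overlapped between genotypes in both classes. Mcm6 levels were 0.295, 0.355 and 0.47 against 0.302, 0.736 and 0.871 in lymphoid-like cells and 0.434, 0.327 and 0.347 against 0.157, 0.368 and 0.318 in macrophage-like cells. For Mcm2 they were 0.106, 0.204 and 0.14 against 0.11, 0.556 and 0.313 and 0.115, 0.162 and 0.256 against 0.0976, 0.264 and 0.208, and its log2 fold change in macrophage-like cells was 0.05 ± 0.43, 1 of only 3 above 0 there. The other 2 were Gins2 and Cdc20, at 0.13 ± 0.57 and 0.13 ± 0.58, and both turned negative with a pseudocount of 0.5 or with voom. By voom 0 of the 38 tested members were higher in macrophage-like cells (36.4% of genes), so Mcm2 was negative there too. The median over the members by voom was -1.54, against -0.14 over all genes.

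The 3 genes of origin loading and firing, Cdc6, Cdc45 and Gins2, were low but each had every SIRT7 KO mouse above every WT mouse in lymphoid-like cells. Their sum was 0.108, 0.0303 and 0.113 CP10K in WT and 0.214, 0.446 and 0.306 in SIRT7 KO mice. Gins2, a subunit of the GINS complex that activates the helicase, was at 0.0562, 0.00467 and 0.00292 CP10K in the WT mice and 0.0621, 0.149 and 0.171 in the SIRT7 KO mice. Rrm2, the regulatory subunit of ribonucleotide reductase, the enzyme that makes deoxynucleotides (chr12:24708241-24714146, plus strand), was at 0.13, 0.222 and 0.309 CP10K in the WT mice and 0.542, 1.52 and 0.384 in the SIRT7 KO mice in lymphoid-like cells, without overlap. Its log2 fold change of 1.51 ± 0.45 was the largest of the S members after Uhrf1 (1.6 ± 0.59), and the adjusted p was 0.382 by limma. Its macrophage-like levels of 0.539, 0.114 and 0.504 and 0.0344, 0.372 and 0.163 overlapped. Rrm1, the catalytic subunit, had in lymphoid-like cells a log2 fold change of 0.04 ± 0.68 and an SIRT7 KO range of 0.0355 to 0.746 CP10K around the WT range of 0.211 to 0.298. The sliding clamp Pcna overlapped in both classes, at 0.214, 0.341 and 0.113 against 0.155, 0.368 and 0.327 in lymphoid-like and 0.502, 0.361 and 0.243 against 0.137, 0.219 and 0.314 in macrophage-like cells.

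By mean CP10K of 3' tags, which do not scale with transcript length, the highest G2/M members were Ube2c, Top2a, Smc4, Cenpa and Birc5. Ube2c, the ubiquitin-conjugating enzyme of the anaphase-promoting complex, was at 0.0805, 0.523 and 0.53 CP10K in the WT mice and 1.06, 2.83 and 0.502 in the SIRT7 KO mice in lymphoid-like cells, where SIRT7 KO mouse 3 lay among the WT mice. In macrophage-like cells it was at 0.477, 2.1 and 1.31 CP10K in the WT mice and 0.117, 0.532 and 0.452 in the SIRT7 KO mice, and WT mouse 1 lay among the SIRT7 KO mice. The log2 fold changes were 1.78 ± 0.77 and -1.66 ± 0.57. Cdc20, the activator of the same complex, was at 0.0675, 0.193 and 0.0666 CP10K in the WT mice and 0.257, 0.528 and 0.336 in the SIRT7 KO mice in lymphoid-like cells, without overlap and with a log2 fold change of 1.45 ± 0.44.

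Top2a, the topoisomerase that untangles chromosomes before they separate, was at 0.114, 0.452 and 0.661 CP10K in the WT mice and 1.1, 2.78 and 0.597 in the SIRT7 KO mice in lymphoid-like cells, with only SIRT7 KO mouse 3 within the WT range. Macrophage-like cells had 0.912, 0.781 and 0.945 CP10K in the WT mice and 0.144, 0.628 and 0.352 in the SIRT7 KO mice, without overlap and with a log2 fold change of -1.30 ± 0.40 (adjusted p = 0.243 by limma). Mki67, which coats mitotic chromosomes and is the common marker of dividing cells (chr7:135689784-135716361, minus strand, GENCODE annotation of GRCm38), did not overlap in either class. Its lymphoid-like levels were 0.074, 0.355 and 0.244 in WT and 0.589, 1.68 and 0.413 in SIRT7 KO mice, and its macrophage-like levels were 0.451, 0.352 and 0.467 and 0.0842, 0.325 and 0.286. The log2 fold changes were 1.70 ± 0.54 and -0.87 ± 0.41. Smc4, a condensin subunit also used outside mitosis, was at 0.536, 0.759 and 1.04 against 1.01, 1.91 and 0.971 in lymphoid-like cells and at 0.575, 0.856 and 0.821 against 0.398, 0.517 and 0.41 in macrophage-like cells, the latter without overlap. Birc5 (survivin), of the chromosomal passenger complex, was at 0.112, 0.358 and 0.242 against 0.725, 2.19 and 0.346 in lymphoid-like cells and at 0.438, 0.749 and 0.988 against 0.0961, 0.5 and 0.535 in macrophage-like cells, and overlapped in both.

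**Figure D4:**
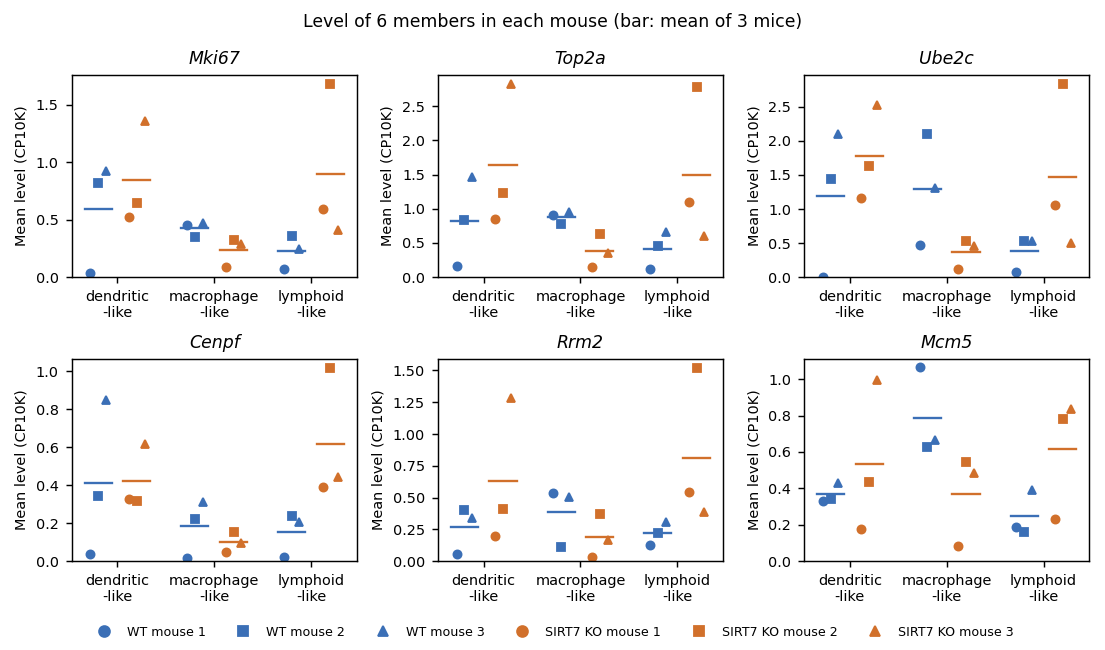
Mean level (CP10K) of 6 members in each mouse in dendritic-like, macrophage-like and lymphoid-like cells, WT in blue and SIRT7 KO in orange, with a bar at the mean of 3 mice. Mki67 is higher in all 3 SIRT7 KO mice than in any WT mouse in lymphoid-like cells (0.413 to 1.68 against 0.0740 to 0.355) and lower in macrophage-like cells.

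Of the cyclins and their kinase, Cdk1, which drives entry into mitosis, was at 0.0945, 0.167 and 0.239 against 0.33, 1.03 and 0.209 in lymphoid-like cells and 0.388, 0.265 and 0.485 against 0.0941, 0.259 and 0.491 in macrophage-like cells, and overlapped in both. Its partners Ccna2 and Ccnb1 did not overlap in macrophage-like cells, at log2 fold changes of -1.28 ± 0.46 and -0.95 ± 0.48. Among the centromere genes, Cenpf was at 0.0225, 0.236 and 0.206 CP10K in the WT mice and 0.388, 1.02 and 0.441 in the SIRT7 KO mice in lymphoid-like cells, the largest log2 fold change of any member there at 1.81 ± 0.53 (adjusted p = 0.382 by limma). Its macrophage-like levels of 0.0186, 0.221 and 0.312 and 0.0501, 0.153 and 0.095 overlapped. Cenpa, the histone H3 variant of centromeres, was at 0.212, 0.592 and 0.348 against 0.846, 1.62 and 0.189 in lymphoid-like cells, where SIRT7 KO mouse 3 was the lowest of all 6 mice, and at 0.445, 1.35 and 0.612 against 0.263, 0.554 and 0.328 in macrophage-like cells.

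The 7 genes of the spindle and its motors (Kif11, Kif20b, Kif23, Nusap1, Tpx2, Tacc3 and Hmmr) summed to 0.212, 0.805 and 1.01 CP10K in WT and 1.59, 4.28 and 1.07 in SIRT7 KO lymphoid-like cells, and to 1.40, 2.04 and 2.62 against 0.474, 1.67 and 1.29 in macrophage-like cells. Nusap1, which bundles spindle microtubules, had the largest negative log2 fold change in macrophage-like cells, -1.80 ± 0.46, with levels of 0.405, 0.768 and 0.672 CP10K in the WT mice and 0.0378, 0.239 and 0.199 in the SIRT7 KO mice. The groups did not overlap, and its adjusted p of 0.164 was the lowest of the members there (limma). In lymphoid-like cells Nusap1 was at 0.0227, 0.201 and 0.311 against 0.361, 1.24 and 0.237, which overlapped. The kinase Aurka, which is not in that sum, and its spindle partner Tacc3 did not overlap in macrophage-like cells, at log2 fold changes of -1.60 ± 0.47 and -1.21 ± 0.41. In lymphoid-like cells the non-overlapping G2/M members were Mki67, Cenpe, Cenpf, Bub1, Kif20b, Kif23, Cdc20 and Plk1. The 12 non-overlapping members in lymphoid-like and the 9 in macrophage-like cells had Mki67 alone in common.

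Dendritic-like cells, mostly conventional dendritic cells with a cluster led by Xcr1, Cd209a and Flt3, had 39 of 40 members with a higher mean in SIRT7 KO mice (51.0% of 9805 genes), but the mice of each genotype spread widely. The summed level was 4.57, 13.7 and 20.3 CP10K in WT and 11.3, 17.3 and 35.1 in SIRT7 KO mice, with overlap. WT mouse 1 (29 cells) was the lowest and SIRT7 KO mouse 3 (23 cells) the highest. The score difference of 0.74 ranged from 0.21 to 1.15 when single mice were left out, and without WT mouse 1 only 27 of 40 members had a higher mean (47.8% of genes). It was 0.21 without WT mouse 1, 0.34 without SIRT7 KO mouse 3 and 1.15 without WT mouse 3. By voom, 22 of the 40 members were higher (47.7% of genes). The thinned share was 3.45% (0.0873 to 17.8), 13.3% (3.76 to 30.7) and 26.2% (19.8 to 33.4) in WT and 14.9%, 19.5% and 56.5% in SIRT7 KO mice, against 17.2%, 26.7% and 34.5% and 18.2%, 32.1% and 60.9% with all UMIs. A single member, Mcm4, had an unadjusted p under 0.05 (2.01% of genes) and was the only member without overlap (4.85% of genes), at 0.13, 0.186 and 0.217 CP10K in the WT mice and 0.291, 0.385 and 0.537 in the SIRT7 KO mice. None was called by limma (0.0306% of genes) or by voom, which gave none at an unadjusted p under 0.05. Ube2c was at 0, 1.45 and 2.11 in WT and 1.17, 1.63 and 2.53 in SIRT7 KO mice and had the largest log2 fold change, 1.68 ± 1.66, which was -0.05 without WT mouse 1, where it was not detected. Birc5 followed at 1.25 ± 0.73, from 0.1, 0.624 and 1.09 to 0.757, 0.931 and 1.9. Pcna alone had a negative value, -0.18 ± 0.50, from 0.276, 0.205 and 0.224 to 0.141, 0.118 and 0.443, and was 0.02 and 0.11 without SIRT7 KO mice 1 and 2. Kupffer markers summed to 0.247 to 4.45 CP10K in WT and 0.464 to 17.4 in SIRT7 KO dendritic-like cells, with overlap. The markers of conventional dendritic cells 1 summed to 13.8 to 20.5 against 9.19 to 11.9 and those of stellate cells to 0.0326 to 0.219 against 0.271 to 0.618, the 2 of 19 lists without overlap. Their part in the result was not tested. In conventional dendritic cells alone all 40 members had a higher mean (50.5% of genes) and 3 had an unadjusted p under 0.05 (2.16% of genes).

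Plasma-like cells were compared in 2 WT and 2 SIRT7 KO mice, and 24 of the 40 members were above the filter. The summed level was 1.58 and 3.59 CP10K in WT mice 2 and 3 and 4.13 and 6.26 in SIRT7 KO mice 1 and 2. The class pooled a cluster led by Igha and a cluster led by Ighg2b. The former held 6 of 20 and 63 of 130 WT cells and 97 of 127 and 117 of 135 SIRT7 KO cells. The part of this mixture in the result was not tested. Median depths of the class were 12702 and 4675 against 3091 and 4073 UMIs. The thinned share was 0% of 20 cells (0 to 16.8, or up to 15% by a limit of 3 counts) and 3.85% in WT and 3.94% and 10.4% in SIRT7 KO mice, without overlap of the values but within counting error for WT mouse 3 and SIRT7 KO mouse 1. With all UMIs it was 10.0% and 6.92% against 7.09% and 16.3%, which overlapped. Among the tested members, 6 had an unadjusted p under 0.05, all higher (4.57% of genes), and 11 lay wholly above and 1 wholly below, where 25.5% and 11.1% of genes did. None was called by limma (0.0652% of genes) or by voom, which gave 3 at an unadjusted p under 0.05, all higher (5.18% of genes). Without WT mouse 3, which left 1 WT mouse of 20 cells, limma called 9 of 23 members, among 879 of 7523 genes (11.7%). Birc5 was at 0 and 0.110 CP10K in WT and 0.376 and 0.355 in SIRT7 KO mice, with a log2 fold change of 2.22 ± 0.63, and Rrm2 at 0 and 0.164 against 0.335 and 0.289, with 1.81 ± 0.67. At the other end, Mcm5 was at 0.154 and 0.107 against 0.0360 and 0.128, and Nusap1 at 0.103 and 0.119 against 0.0524 and 0.0921. Neutrophil markers in this class summed to 0.0391 to 0.339 CP10K in WT and 10.8 to 13.9 in SIRT7 KO mice, without overlap. Others without overlap were the T markers (0.0479 to 1.32 against 2.28 to 2.43), the NK markers (0.201 to 0.974 against 2.15 to 2.34) and the Kupffer markers (0.161 to 0.794 against 0.905 to 2.62). In all, 9 of 19 lists lay higher without overlap in these 2 against 2 mice, and their part in the result was not tested.

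In endothelial-like cells 20 of the 40 members were above the filter, tested in 3 WT mice and SIRT7 KO mice 1 and 2. The summed level was 4.40, 3.87 and 3.31 CP10K in WT and 4.08 and 6.22 in SIRT7 KO mice, with overlap. None of the tested members had an unadjusted p under 0.05 by limma (7.57% of genes) and none was called (0.318% of genes). By voom none was called and 3 had an unadjusted p under 0.05, all higher (3.72% of genes). There were 3 members wholly above and 2 wholly below, against 9.83% and 12.9% of genes. Mki67 was at 0, 0 and 0.0276 against 0.0633 and 0.202, and Top2a at 0, 0 and 0.176 against 0.0541 and 0.498. The helicase genes Mcm7 and Mcm3 lay lower, at 0.232, 0.184 and 0.191 against 0.0572 and 0.0669 and at 0.601, 0.673 and 0.715 against 0.584 and 0.385. The thinned share was 1.52%, 2.11% and 1.92% in WT and 2.17% and 10.8% in SIRT7 KO mice, and with all UMIs 8.82%, 3.67% and 5.62% against 1.53% and 6.90%. After thinning these were 1 of 66, 2 of 95 and 1 of 52 WT cells and 2 of 92 and 4 of 37 SIRT7 KO cells. The 95% interval of SIRT7 KO mouse 2 was 3.03% to 25.4%. Too shallow to thin were 2, 14 and 37 WT and 104 and 21 SIRT7 KO cells. With all UMIs, all 7 SIRT7 KO endothelial-like cells with 3 or more members also carried 3 or more markers of another class, as did 38.0% of the other SIRT7 KO cells. In WT, 60% of the cells with 3 or more members did and 24.3% of the rest. The 7 cells were deeper than the rest, at a median of 2991 against 1013 UMIs. Without cells carrying markers of another class the score difference of 0.38 became -0.10. The 10 Kupffer markers summed to 0.329 to 1.99 CP10K in WT and 2.31 to 6.34 in SIRT7 KO mice, and the B markers to 0 to 0.134 and 0.862 to 0.966, the 2 of 19 lists without overlap.

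Further genes of the cycle, a list of 56 S and M genes and a list of 38 regulators, were counted in the same fits. Of the S and M genes, 55 were tested in lymphoid-like cells, with 23 higher (2.65% of all genes) and none lower at an unadjusted p under 0.05. In macrophage-like cells 53 were tested, with none higher and 10 lower (6.78% of all genes). None was called, also in the other classes. Stmn1, which destabilises microtubules, had a mean of 1.08 CP10K in WT and 3.74 in SIRT7 KO lymphoid-like cells (log2 fold change 1.66 ± 0.46), and Clspn, a replication checkpoint adaptor, 0.0389 and 0.288 (1.87 ± 0.50), both without overlap. In macrophage-like cells the spindle checkpoint kinase Bub1b was at 0.310 and 0.0673 (-1.65 ± 0.46), without overlap. Of the regulators, which include activators and inhibitors of the cycle, 31 were tested in each of these classes. In lymphoid-like cells 24 had a higher mean (44.3% of genes) and 7 a lower one, and in macrophage-like cells 15 (47.6% of genes) and 16. At an unadjusted p under 0.05, 2 were higher (2.65% of genes) and none lower in lymphoid-like cells. In macrophage-like cells 1 was higher (3.97% of genes) and 1 lower (6.78% of genes). The higher one in macrophage-like cells was Cdkn1a, which encodes the CDK inhibitor p21, at 0.381 in WT and 0.924 in SIRT7 KO mice (1.27 ± 0.35, adjusted p = 0.197 by limma), without overlap. The lower one was E2f3, an activator E2F, at 0.347 and 0.101 (-1.20 ± 0.49). Rbl2, which encodes the DREAM subunit p130, had a log2 fold change of 0.63 ± 0.41 in macrophage-like cells and -0.65 ± 0.35 in lymphoid-like cells, and Mdm2, the ligase of p53, -0.70 ± 0.49 in the latter.

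In dendritic-like cells the extremes of both lists were E2f1 (0.0703 and 0.244 CP10K, 1.48 ± 0.58), the passenger complex scaffold Incenp (1.36 ± 0.62), the histone chaperone Nasp (-0.58 ± 0.35) and E2f2 (-0.47 ± 0.50). In plasma-like cells the chromatin protein Hmgb2 was at 0.559 and 2.88 (2.66 ± 0.66) and the Pcna-binding factor Pclaf at 0.211 and 0.547 (1.96 ± 0.90), with Mad2l1 and Tfdp1 at -0.59 ± 0.74 and -0.54 ± 0.57. Endothelial-like cells had Hmgb2 at 0.656 and 2.05 (1.73 ± 0.44) with the lowest adjusted p of the further genes in that class, 0.0724 by limma, and Stmn1 at 0.103 and 0.703 (2.29 ± 0.72). On the other side were Tipin (-1.62 ± 0.87) and E2f4 (-1.33 ± 0.71).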

How the data were processed

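Per the study's methods and the submitters' processing notes, the authors aligned 10x Genomics 3' reads from 3 WT and 3 SIRT7 KO livers with Cell Ranger 6.0.0 to mm10, removed cells with fewer than 500 genes or above 5% mitochondrial reads and genes seen in fewer than 3 cells, scaled each cell to 10000, and deposited the natural log of the value plus 1. CP10K was recovered as exp(x) - 1. Taking the lowest value above 0 in a cell as the fewest UMIs that made all its values whole multiples, whole UMIs (within 0.02) resulted for 100% of 12961041 values. The 40 members and the further gene lists were chosen with earlier results of these data known.

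Cells were grouped by Leiden clustering (scanpy 1.11.5, leidenalg 0.10.2) at resolution 1.0 on a graph with 3 neighbors from each mouse, 1000 variable genes and 50 components, without the members and further cycle genes. Clusters were named from fixed marker lists, since a deposited annotation was not used here, so classes may differ from the study's. Scrublet marked 46 cells (0.396%), which is too few to count as a working call, and cells were kept, with removals as alternatives. Mice with 20 or more cells of a class entered. Genes with a mean of 0.05 CP10K or more were fitted by limma 3.58.1 (R 4.3.3) on log2(mean CP10K + 0.05) per mouse, with trend and robust options, two-sided, and Benjamini-Hochberg adjusted over all genes of the class. Fold changes on that scale understate changes of low genes. In simulated data limma called 0% to 2% of 2-fold and 19% to 34% of 4-fold changes in dendritic-like, macrophage-like and lymphoid-like cells. It called 0% of either in plasma-like and endothelial-like cells. An absence of calls therefore does not exclude changes of these sizes. Score, sum and share over the members carry no test. Shares were taken after thinning cells to 1000 UMIs.

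Genes named with values were the 12 members highest in mean level, Mki67, Top2a, Pcna and Mcm2, the 2 members with the largest change in each direction and class (10 or more UMIs), and the 2 such further cycle genes. Others were chosen after their values were seen (Cdc6, Cdc45, Gins2 and Cdc20 in lymphoid-like cells, Rrm1, Uhrf1, Ccna2, Ccnb1, Aurka, Tacc3, Mcm4 and lists of non-overlapping members). Alternatives were the pseudocount (0.01 and 0.5), no filter, voom, each mouse left out, a replicate block, at least 50 cells, clustering at resolution 0.35 and 2.0 or with cycle genes kept, other thinning depths and numbers of members, and doublet or mixed cells left out. Monocyte-like cells were also added to the macrophage-like class.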

Additional observations from a re-analysis of the deposited data

Results flagged for a closer look

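The summed level of the members moved in opposite directions in different classes of the same livers. Every SIRT7 KO mouse lay below every WT mouse in macrophage-like cells, by -6.72 CP10K in the mean, and every SIRT7 KO mouse lay above every WT mouse in lymphoid-like cells, by 11.9. For the G2/M members alone the differences were -4.62 and 8.67 CP10K. Leaving out single mice gave -8.19 to -4.51 for the sum in macrophage-like cells and 4.65 to 15.9 in lymphoid-like cells, and -6.00 to -3.35 and 3.34 to 12.1 for the G2/M members, with the lymphoid-like values lowest without SIRT7 KO mouse 2. The same opposition held between macrophage-like cells and the 2 against 2 mice of plasma-like cells, where the sum was higher by 2.61 CP10K, the S members by 0.60 (-2.10 in macrophage-like cells) and the G2/M members by 2.01. Without single mice these ran from 1.55 to 3.68, from 0.328 to 0.871 (-2.69 to -1.16 in macrophage-like cells, the latter without SIRT7 KO mouse 1) and from 1.18 to 2.84. The difference between classes was not tested for these sums. In monocyte-like cells, which belong to none of the 5 classes, the summed level was 1.83, 2.19 and 2.17 CP10K in WT and 5.88, 2.91 and 5.23 in SIRT7 KO mice, without overlap and with a difference in means of 2.61 CP10K.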

How the results depend on the processing

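The score differences in dendritic-like, macrophage-like and lymphoid-like cells kept their direction under every alternative run and moved by less than the SD between mice. In dendritic-like cells that SD (0.968 in WT, 0.764 in SIRT7 KO) exceeded the difference itself, so this limit could not have marked a loss of the difference. The score was not run with voom, by which the members' median log2 fold change in dendritic-like cells was 0.068, against 0.739 in the main fit. With a pseudocount of 0.01 and 0.5 the score difference was 1.26 and 0.15 in plasma-like and 0.84 and 0.076 in endothelial-like cells. In endothelial-like cells it was -0.10 with cells carrying markers of another class left out, and the share difference was -1.82 percentage points without thinning and -2.44 without those cells. Leaving out single mice gave, in endothelial-like cells, a score difference of 0.17 to 0.60, a share difference of 0.326 to 8.96 points and a G2/M sum difference of 0.388 to 1.91 CP10K. It gave 0 to 9 called members in plasma-like cells, the 9 (of 23, among 879 of 7523 genes) without WT mouse 3, which leaves 1 WT mouse assumed to vary like the others. Leave-one-out log2 fold changes ran from -0.046 (without WT mouse 1) to 2.67 for Ube2c and from -0.66 to 0.11 for Pcna in dendritic-like cells (0.02 without SIRT7 KO mouse 1), and from -0.33 to 0.36 for Cdc20 and -0.47 to 0.50 for Gins2 in macrophage-like cells. With a pseudocount of 0.5 the last 2 were at -0.0073 and -0.0047, and by voom at -1.22 and -0.65. The cause of these changes was not tested.

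With mouse numbers as a replicate block, 2 of 38 members were called in macrophage-like cells, among 125 of 9942 genes (1.26%). They were Nusap1 (adjusted p = 0.0203 by limma) and Ube2c (0.00414). In the same fit 0 members were called in dendritic-like (0.153% of genes), lymphoid-like (0.119% of genes) and endothelial-like cells (1.06% of genes). The block could not be fitted in plasma-like cells. Same-numbered mice did not deviate together (correlations of -0.10 to 0.12 in lymphoid-like and macrophage-like cells), so the numbers were not read as pairs. At least 50 cells per mouse left 1 WT mouse in dendritic-like and plasma-like cells and was not run there, and in endothelial-like cells it kept the same mice. Clustering at resolution 0.35 or with cycle genes kept gave no value for dendritic-like cells, whose cluster stayed unnamed. With at least 50 cells in both classes, which left 2 against 2 mice, the within-mouse difference between lymphoid-like and macrophage-like cells called 2 members, Birc5 and Ube2c, among 6 of 9099 genes (lowest adjusted p = 0.0230 by limma). Depth limits the classes with 20 to 33 cells in a mouse, in which a single cell moves a share by several points.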
